A study of Mus musculus with 76 samples.

Results

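The synaptic vesicle and postsynaptic density genes were a list of 38 named mouse genes among the 56923 genes counted. They were chosen by name and not by a measured value, though with earlier results of these data known. By textbook role, 26 of them encode presynaptic proteins, 11 encode postsynaptic proteins and 1, Cask, encodes a scaffold found on either side of the synapse. Their RNA was read from diencephalon, the part of the forebrain that forms thalamus and hypothalamus, of C57BL/6J mouse embryos at embryonic days E11.5 and E17.5. Homozygous humanized embryos, in which human hs754 enhancer sequence replaces its mouse counterpart on chromosome 13, were compared with homozygous wild type embryos, and neither group received a treatment. Each genotype and time point had 4 RNA-seq libraries, each from a pool of 6 embryos (E11.5) or 3 embryos (E17.5) of a single litter, so that spread and p-values refer to pools. Promoter chromatin was read from ChIP-seq peak lists of H3K4me3, H3K27ac and H3K27me3, with 2 wild type lists per mark at the early and 3 at the late time point, and of CTCF, with 3 wild type lists at E17.5.

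At a synapse, vesicles loaded with transmitter dock at the active zone of the presynaptic terminal, a calcium sensor of the synaptotagmin family triggers release, and SNARE proteins fuse the vesicle with the cell membrane. On the other side, scaffold proteins of the postsynaptic density hold receptors and kinases in place opposite the terminal. In the early diencephalon most cells are dividing progenitors and the first neurons are growing axons, whereas synapse formation begins later in fetal life. H3K4me3 marks active and poised promoters, H3K27ac marks active promoters and enhancers, H3K27me3 is the mark of Polycomb repression, and CTCF is a DNA-binding protein that organizes chromatin loops.

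Counts on genes were between 16414369 and 24272569 per library. Summed levels, in counts scaled to library size (CPM), of 10 general neuron markers rose from between 2258 and 3858 in the 8 libraries of E11.5 to between 8564 and 10852 in the 8 of E17.5, and those of 10 progenitor and cycling markers fell from between 4552 and 5189 to between 950 and 1227. All 14 diencephalon markers were detected in each group (sums of 1424 to 2424 CPM), while 7 midbrain and hindbrain markers summed to at most 16.7 CPM. The 10 telencephalic neuron markers summed at E11.5 to between 128 and 153 CPM in humanized and between 157 and 198 CPM in wild type libraries. At E17.5 they summed to between 285 and 313 CPM in humanized and between 276 and 284 CPM in wild type libraries. The genotypes thus did not overlap in these sums, in opposite directions at the time points. The part of neighbouring telencephalon in the results was not tested. RPKM is the count per kilobase of exon, scaled to library size, was computed here from the counts, and is the level used to compare genes.

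One library stood apart in these genes. In wild type replicate 1 of E17.5, the median member lay 0.94 (log2) away from the median of the other 3 wild type libraries, and 16 of 38 members lay more than 2-fold away, against 0.12 to 0.38 in the other 15 libraries. It was above the other libraries for 22 members, among them Dlg4 (1.51 on the log2 scale), Syp (1.44) and Vamp2 (1.24), and below them for 16, among them Slc17a6 (-1.61), Snap25 (-1.48) and Homer1 (-1.38). Across the 38 members its deviation had a correlation of 0.73 with the GC content of the exons, which ran from 38.9% (Gphn) to 63.2% (Shank3). In the other 15 libraries this correlation lay between -0.79 and 0.76 with smaller deviations. The same library also held the highest sums of its group for red blood cell markers (986 CPM against 234 to 444), microglia (71.4 against 34 to 34.9), endothelial and pericyte (469 against 253 to 313) and meningeal fibroblast markers (705 against 407 to 469). It was also highest for oligodendrocyte lineage (265 against 200 to 221) and telencephalic neuron markers (284 against 276 to 282). It was lowest for astrocyte (584 against 656 to 778) and progenitor and cycling markers (950 against 1009 to 1227). Its general neuron markers (9479 CPM) lay within the range of the others. The points of the correlation share 1 library, so no p is given, and the part of these cells and of base composition in the results was not tested. Over the 38 members, counts called and medians that rest on wild type E17.5 samples are therefore also given without this library below. So are values of some single members, but not those of the lists of other synaptic genes. Without this library the wild type change between time points was lower in 23 members and higher in 15, by between -0.53 (Syp) and 0.25 (Slc17a6) on the log2 scale. It moved by over 1.5 times in 4, Syt11, Cplx2, Dlg4 and Homer1, whose values are given beside each.

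**Figure D1:**
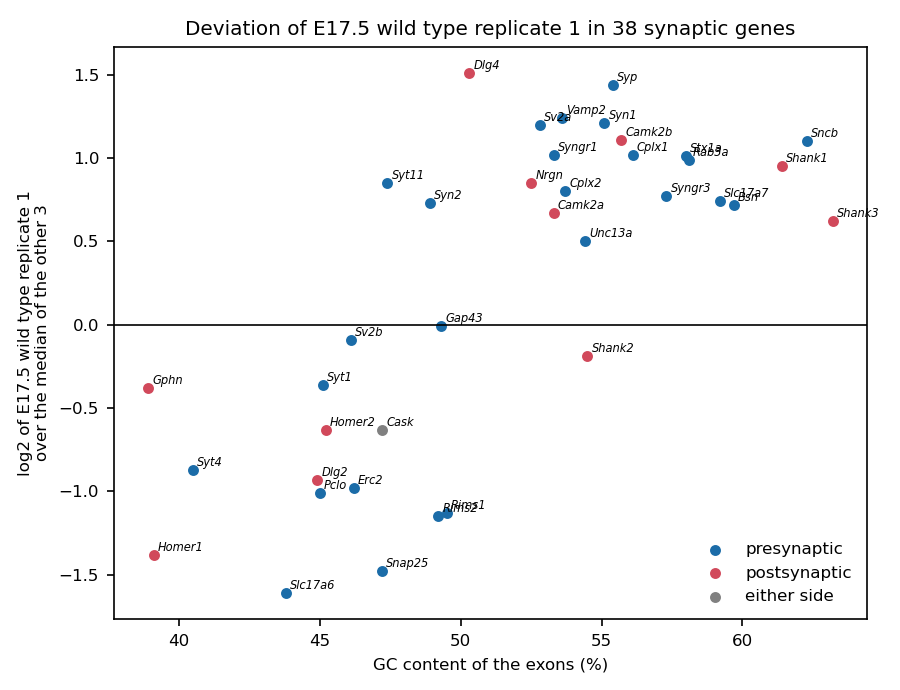
Deviation of wild type replicate 1 of E17.5 from the median of the other 3 wild type libraries (y axis, log2 of CPM) against the GC content of the exons (x axis, percent) for the 38 members, 1 point per gene. Members with low GC such as Slc17a6 and Homer1 lie below 0 and members with high GC such as Sncb and Syp above it.

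The promoters of 4 members are shown first because the largest wild type RNA changes fall on them. Changes in promoter marks described below fall on Sncb, Syn2 and Camk2b among them. They are the 3 members with the largest wild type change between time points among those whose marks were present in every list of one time point and none of the other (Sncb, Syn2 and Camk2b), and the members with the most CpG dinucleotides (Camk2b, 44) and the fewest (Dlg2, 3). Each sequence is the 250 bases before a RefSeq transcript start (RefSeq, GRCm38.p6), placed by exact match on GRCm39 (mm39), read 5′ to 3′ on the strand of the gene, with CpG dinucleotides in capitals. Sncb (chr13:54914409-54914658, minus strand) had 10 CpG, Syn2 (chr6:115111613-115111862, plus strand) 16, Camk2b (chr11:6015749-6015998, minus strand) 44 and Dlg2 (chr7:90739744-90739993, plus strand) 3.
Sncb: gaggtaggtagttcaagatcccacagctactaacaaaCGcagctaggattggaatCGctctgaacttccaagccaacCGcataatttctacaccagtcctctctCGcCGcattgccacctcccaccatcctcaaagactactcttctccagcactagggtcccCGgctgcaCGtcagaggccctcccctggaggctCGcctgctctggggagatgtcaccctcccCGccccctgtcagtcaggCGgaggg
Syn2: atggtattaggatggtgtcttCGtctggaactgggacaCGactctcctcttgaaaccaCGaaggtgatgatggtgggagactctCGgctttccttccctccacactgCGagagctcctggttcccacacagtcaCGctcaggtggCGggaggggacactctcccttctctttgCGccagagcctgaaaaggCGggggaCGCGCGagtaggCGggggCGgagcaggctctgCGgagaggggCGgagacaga
Camk2b: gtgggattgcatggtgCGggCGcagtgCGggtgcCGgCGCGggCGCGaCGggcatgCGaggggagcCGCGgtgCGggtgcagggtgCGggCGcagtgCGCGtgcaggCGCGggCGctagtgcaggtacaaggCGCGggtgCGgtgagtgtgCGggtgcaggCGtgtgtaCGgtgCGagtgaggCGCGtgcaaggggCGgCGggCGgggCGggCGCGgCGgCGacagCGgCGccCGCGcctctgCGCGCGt
Dlg2: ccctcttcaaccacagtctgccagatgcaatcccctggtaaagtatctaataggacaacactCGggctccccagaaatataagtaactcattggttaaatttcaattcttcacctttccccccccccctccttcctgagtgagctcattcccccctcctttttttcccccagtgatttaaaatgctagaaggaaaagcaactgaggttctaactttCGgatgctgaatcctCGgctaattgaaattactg

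RefSeq promoters were found for 28 of the 38 members. They held a median of 15.5 CpG and 61.2% GC in 250 bases, beside 12 CpG and 56.8% GC for all 15319 promoters of the table. The 8 matched postsynaptic promoters had a median of 26 CpG and the 20 presynaptic ones 14.0. The motif TTCAGCACC, the left part of the element bound by the neuronal gene repressor REST, was searched on both strands. It was found in 1 of 28 member promoters (3.57%), that of Syn1, and in 0.313% of all promoters of this length. In Syn1 (chrX:20787158-20787407, minus strand), encoding the vesicle phosphoprotein synapsin 1, the motif, here in capitals, ended 223 bases before the start.
Syn1: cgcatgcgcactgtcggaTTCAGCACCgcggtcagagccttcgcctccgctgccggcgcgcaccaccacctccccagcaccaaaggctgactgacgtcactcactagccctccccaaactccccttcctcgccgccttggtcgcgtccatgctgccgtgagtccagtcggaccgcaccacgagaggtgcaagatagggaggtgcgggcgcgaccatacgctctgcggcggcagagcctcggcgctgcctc

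The members as a group rose between the time points. In wild type embryos, the quasi-likelihood test of edgeR, adjusted by Benjamini-Hochberg over 18583 genes, called 35 of 38 members higher at E17.5 (92.1%), against 29.0% of all genes tested, and called 0 lower, against 26.7%. Against a 2-fold change the same fit called 29 members higher, against 16.2% of genes. The median log2 fold change of the members was 2.61, against -0.01 for all genes tested, and values ran from -0.02 (Syt11) to 5.88 (Sncb). The humanized libraries, which share no library with this comparison, also gave 35 members called higher (38.2% of all genes tested) and 0 lower (39.5%), with a median of 2.39, and 32 members against a 2-fold change (23.2%). In 34 members every wild type library of E17.5 lay above every one of E11.5, and in 35 members for the humanized libraries, against 25.2% and 35.0% of genes. In bulk tissue, fewer cells of a type and less RNA per cell cannot be told apart, and the neuron markers above rose over the same interval. Without wild type replicate 1 of E17.5, 36 members were called higher, where 6968 of all 19351 genes tested were. Against a 2-fold change this fit called 30 members and 4012 of all genes higher. The median of the members was then 2.29, and the time points did not overlap in 36 members, against 35.4% of genes.

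**Figure D2:**
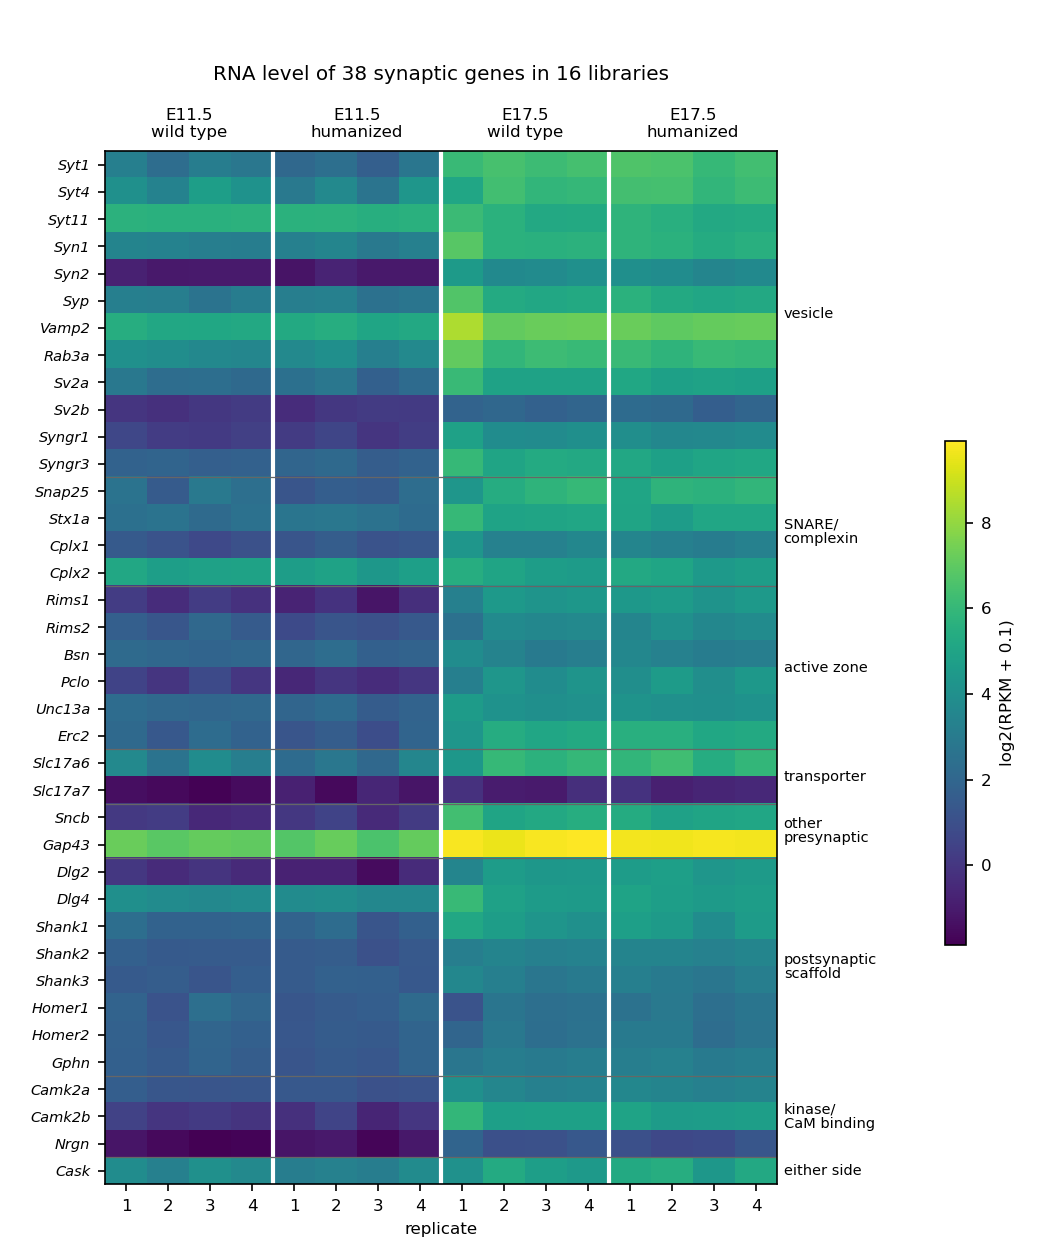
RNA level of the 38 members (rows, grouped by role) in the 16 libraries (columns, grouped by time point and genotype), as log2 of RPKM with 0.1 added. Nearly all rows are brighter in the 8 libraries of E17.5, apart from Syt11 and Cplx2, and wild type replicate 1 of E17.5 differs from its neighbours in many rows.

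**Figure D3:**
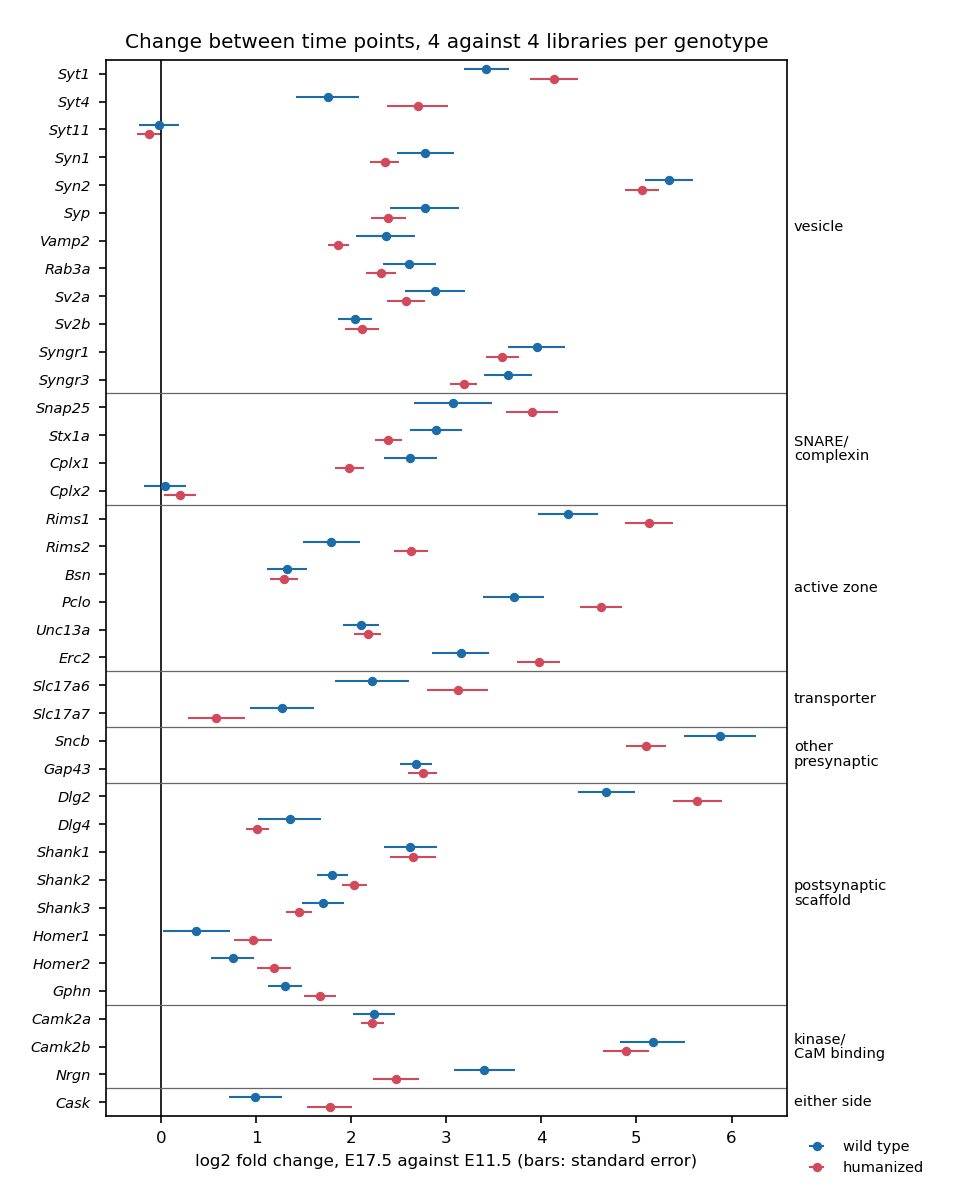
Log2 fold change of each member between E17.5 and E11.5 (x axis) in wild type and in humanized libraries, 4 against 4 in each, with standard errors as bars. Sncb, Syn2, Camk2b, Dlg2 and Rims1 lie highest, above 4 in both genotypes, and Syt11 and Cplx2 lie next to 0.

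Of the 12 vesicle proteins, 11 were called higher in both genotypes. Syn2, encoding synapsin 2, which tethers vesicles to each other and to the cytoskeleton, changed most (ENSMUSG00000009394.14, chromosome 6, 115111825 to 115261708). Its wild type libraries, in the order of replicates 1 to 4, held 0.476, 0.384, 0.398 and 0.398 RPKM at E11.5 and 23.6, 13.2, 14.2 and 16.5 RPKM at E17.5. Every library of E17.5 was far above every library of E11.5, with a log2 fold change of 5.34 ± 0.25 (standard error, adjusted p = 3.12e-07 by edgeR), and 5.06 ± 0.18 in humanized embryos. Syngr1, encoding the vesicle protein synaptogyrin 1, rose from 1.46, 1.06, 0.992 and 1.21 RPKM to 29.7, 14.6, 13.8 and 15.7 RPKM in wild type, a log2 fold change of 3.95 ± 0.30 (adjusted p = 2.31e-06 by edgeR). Syt1, the fast calcium sensor of transmitter release, rose by 3.42 ± 0.24 on the log2 scale. Vamp2, the vesicle SNARE, was already at 32.8 to 44.8 RPKM over the 8 libraries of E11.5 and reached 128 to 357 RPKM at E17.5, with 357 RPKM in wild type replicate 1 and at most 153 RPKM in the other 7 libraries. The remaining vesicle proteins that rose in wild type were Syt4, Syn1, Syp, Rab3a, Sv2a, Sv2b and Syngr3, with log2 fold changes from 1.75 (Syt4) to 3.65 (Syngr3).

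Syt11, encoding a synaptotagmin that is not a calcium sensor, did not follow the rest (ENSMUSG00000068923.15, chromosome 3, 88632134 to 88682471). It held 51.2, 48.8, 48.8 and 51.4 RPKM in wild type at E11.5, and 71.3, 49.7, 37.9 and 39.5 RPKM at E17.5. The humanized libraries held 50.8, 52.1, 45.7 and 48.4 RPKM at E11.5 and 56.1, 47.1, 38.1 and 40.5 RPKM at E17.5. The time points overlapped in both genotypes, and the log2 fold change was -0.02 ± 0.21 (adjusted p = 0.931 by edgeR) in wild type, -0.26 without replicate 1 of E17.5 (adjusted p = 0.0666), and -0.13 ± 0.13 (adjusted p = 0.40) in humanized embryos. At E11.5 Syt11 had the second highest mean level of the 38 members (49.6 ± 2.11 RPKM, SD, n = 8), after Gap43.

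Of the 4 membrane SNAREs and complexins, Snap25, Stx1a and Cplx1 rose in both genotypes. Snap25, the membrane SNARE that pairs with Vamp2, showed the largest change, from 6.10, 2.77, 7.38 and 5.34 RPKM to 19.7, 43.3, 55.2 and 64.8 RPKM in wild type. The time points did not overlap, although replicate 1 of E17.5 lay far below the other 3, and the log2 fold change was 3.07 ± 0.41 (adjusted p = 1.05e-04 by edgeR), with 3.90 ± 0.27 in humanized embryos. Cplx2, encoding complexin 2, which clamps the SNARE complex until calcium arrives, was not called (ENSMUSG00000025867.9, chromosome 13, 54519154 to 54531730). It held 36.6, 26.6, 29.1 and 30.4 RPKM at E11.5 and 44.6, 32.5, 25.5 and 24.2 RPKM at E17.5 in wild type, and 25.6, 30, 20.8 and 27.6 RPKM and then 38.2, 33.0, 22.8 and 25.8 RPKM in humanized embryos. These groups overlapped, with a log2 fold change of 0.04 ± 0.22 in wild type (adjusted p = 0.895 by edgeR), which turned to -0.18 without replicate 1 of E17.5 (adjusted p = 0.265), and of 0.20 ± 0.17 in humanized embryos (adjusted p = 0.315). Its paralog Cplx1 stood at a lower level, 1.58 to 2.94 RPKM at E11.5 and 8.41 to 20.1 RPKM at E17.5, and rose by 2.62 ± 0.28 on the log2 scale in wild type.

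All 6 active zone genes rose in both genotypes. Rims1, a scaffold that links vesicles to calcium channels, changed most, from 1.09, 0.688, 1.08 and 0.774 RPKM to 9.46, 22.3, 18.9 and 20.7 RPKM in wild type (ENSMUSG00000041670.20, chromosome 1, 22356133 to 22845686). Every library rose, though replicate 1 of E17.5 reached a lower level than the other 3, and the log2 fold change was 4.28 ± 0.32 (adjusted p = 2.14e-06 by edgeR) and 5.13 ± 0.25 in humanized embryos. Bsn, encoding the large scaffold bassoon, changed least, from 4.54, 4.17, 3.75 and 4.14 RPKM to 14.6, 10.4, 7.85 and 8.87 RPKM, a log2 fold change of 1.32 ± 0.21 (adjusted p = 3.89e-04 by edgeR) that did not pass the test against a 2-fold change in wild type (adjusted p = 0.0853). Pclo, encoding piccolo, a scaffold related to bassoon, rose from 1.31, 0.883, 1.62 and 0.916 RPKM to 9.30, 19.9, 14.4 and 18.7 RPKM, a log2 fold change of 3.71 ± 0.32. Rims2 rose by 1.79 ± 0.30, the priming factor Unc13a by 2.10 ± 0.19 and Erc2 by 3.15 ± 0.30 on the log2 scale.

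The vesicular glutamate transporters, which load vesicles with glutamate, stood at very different levels. Slc17a6 (VGLUT2), the form known from thalamus, rose in wild type from 12.8, 6.05, 14.4 and 8.93 RPKM to 20.3, 64.9, 51.5 and 62.1 RPKM, a log2 fold change of 2.22 ± 0.39 (adjusted p = 6.89e-04 by edgeR). Slc17a7 (VGLUT1), the form known from cortex, held 0.275, 0.235, 0.192 and 0.256 RPKM at E11.5 and 0.793, 0.412, 0.393 and 0.733 RPKM at E17.5, which rest on 12 to 20 and on 24 to 55 counts. The wild type libraries did not overlap, with a log2 fold change of 1.27 ± 0.34 (adjusted p = 0.00825 by edgeR). The humanized libraries held 0.477, 0.241, 0.556 and 0.337 RPKM and then 0.809, 0.460, 0.533 and 0.604 RPKM, overlapped, and were not called (0.58 ± 0.30, adjusted p = 0.0998).

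Sncb and Gap43, the other presynaptic members, both rose. Sncb, encoding beta-synuclein, showed the largest change of all 38 members (ENSMUSG00000034891.14, chromosome 13, 54906660 to 54914432). It held 0.965, 1.08, 0.608 and 0.678 RPKM at E11.5, or 23 to 39 counts, and 82.3, 32.3, 38.2 and 44.2 RPKM at E17.5 in wild type. Replicate 1 of E17.5 was the highest, the groups did not overlap, and the log2 fold change was 5.88 ± 0.38 (adjusted p = 9.52e-07 by edgeR), 5.51 without that replicate and 5.10 ± 0.21 in humanized embryos. Gap43, a growth cone protein of extending axons, had the highest level of all members at both time points (ENSMUSG00000047261.10, chromosome 16, 42068805 to 42161086). It rose from 147, 119, 138 and 133 RPKM to 874, 749, 880 and 960 RPKM in wild type, a log2 fold change of 2.68 ± 0.17 (adjusted p = 8.91e-07 by edgeR), and from 122 ± 23.5 to 827 ± 28.6 RPKM (SD, n = 4) in humanized embryos.

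Of the 8 postsynaptic scaffolds, 7 were called higher in wild type and all 8 in humanized embryos. Dlg2, encoding PSD-93, changed most (ENSMUSG00000052572.20, chromosome 7, 90125880 to 92098455, the longest member at 1973 kb). It rose from 0.945, 0.645, 0.827 and 0.625 RPKM to 11.2, 24.8, 20.8 and 21.5 RPKM in wild type, a log2 fold change of 4.68 ± 0.30 (adjusted p = 9.05e-07 by edgeR), and by 5.64 ± 0.26 in humanized embryos. Its paralog Dlg4, encoding PSD-95, was much higher than Dlg2 at E11.5 (12.1 to 15.9 RPKM in the 8 libraries) and changed less, by 1.35 ± 0.33 in wild type, 0.84 without replicate 1 of E17.5, and 1.01 ± 0.12 in humanized embryos. At E17.5 Dlg2 (11.2 to 27.7 RPKM) and Dlg4 (23.4 to 68.1 RPKM) overlapped. The 3 Shank scaffolds rose by 2.62 ± 0.28 (Shank1), 1.80 ± 0.16 (Shank2) and 1.70 ± 0.22 (Shank3) on the log2 scale. Gphn, encoding gephyrin, the scaffold of inhibitory synapses, rose by 1.3 ± 0.18 and Homer2 by 0.75 ± 0.23.

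Homer1, a scaffold that links glutamate receptors to calcium stores, was the postsynaptic member that wild type libraries did not call (ENSMUSG00000007617.19, chromosome 13, 93436143 to 93541637). It held 3.62, 2.14, 5.26 and 3.94 RPKM at E11.5 and 2.15, 6.44, 5.34 and 5.64 RPKM at E17.5. The replicate 1 library of E17.5 lay among the lowest of E11.5, the others above all of E11.5, and the log2 fold change was 0.37 ± 0.35 (adjusted p = 0.394 by edgeR) with it and 0.61 without it (adjusted p = 0.0252). In humanized embryos Homer1 rose from 2.31, 2.77, 3.08 and 4.52 RPKM to 5.85, 7.46, 5.40 and 6.39 RPKM without overlap (0.97 ± 0.20, adjusted p = 7.92e-04 by edgeR).

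The 3 postsynaptic kinase and calmodulin-binding genes rose in both genotypes. Camk2b, encoding the beta subunit of calcium/calmodulin-dependent kinase II, changed most, from 1.28, 0.859, 1.01 and 0.83 RPKM to 60.4, 27, 27.9 and 28.6 RPKM in wild type (ENSMUSG00000057897.15, chromosome 11, 5915791 to 6016362). Apart from replicate 1 the libraries of E17.5 lay close together, and the log2 fold change was 5.17 ± 0.34 (adjusted p = 1.08e-06 by edgeR), 4.79 without replicate 1. Camk2a, the alpha subunit, rose from 3.03, 2.31, 2.30 and 2.33 RPKM to between 9.38 and 16.2 RPKM (11.8 ± 3.06, SD, n = 4), a log2 fold change of 2.24 ± 0.22 (adjusted p = 1.27e-05 by edgeR). At E11.5 every library had more Camk2a than Camk2b per length of exon, and at E17.5 every library had more Camk2b. Nrgn, encoding neurogranin, which binds calmodulin in dendrites, rose from 0.342, 0.241, 0.176 and 0.195 RPKM to 3.73, 1.90, 2.01 and 2.48 RPKM (log2 fold change 3.40 ± 0.32, adjusted p = 9.15e-06 by edgeR), and with Slc17a7 it was one of the pair of lowest members at E17.5. Cask, of either side, rose from 14.5, 9.48, 16.4 and 12.6 RPKM to 17.2, 40.4, 26.5 and 22.0 RPKM in wild type, a log2 fold change of 0.99 ± 0.28 (adjusted p = 0.0117 by edgeR), and by 1.77 ± 0.24 in humanized embryos.

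Presynaptic and postsynaptic members were called at similar shares, 24 of 26 and 10 of 11 in wild type and 23 of 26 and 11 of 11 in humanized embryos. The median log2 fold change was 2.72 for presynaptic and 1.80 for postsynaptic members in wild type, and 2.60 and 2.03 in humanized embryos. The wild type difference of the medians, 0.92, was 0.57 without replicate 1 of E17.5. Against a 2-fold change, 22 of 26 presynaptic and 7 of 11 postsynaptic members were called in wild type, and 23 of 26 and 8 of 11 in humanized embryos. Without replicate 1 of E17.5 the wild type counts were 24 of 26 and 11 of 11 called and 22 and 8 against a 2-fold change. The median level of the presynaptic members lay between 3.06 and 5.20 RPKM in the 8 libraries of E11.5 and between 28.8 and 36.2 RPKM at E17.5. The median of the postsynaptic members lay between 2.30 and 3.23 RPKM and between 9.38 and 11.2 RPKM. The ratio of the medians was 1.33 to 1.73 at E11.5 and 2.69 to 3.57 at E17.5, without overlap. These are descriptions over chosen genes and carry no test.

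Lists of other synaptic genes moved in the same direction at lower shares. Of 50 other presynaptic genes, 49 were tested in wild type, 42 were called higher and 4 lower, with a median log2 fold change of 2.39. Of 30 other postsynaptic genes, 29 were tested, 22 were called higher and 2 lower, with a median of 1.5. In humanized embryos 41 and 5 of the other presynaptic genes and 21 and 2 of the other postsynaptic genes were called higher and lower.

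No member was called between genotypes. At E11.5, edgeR called 0 of 38 members (0% of 17816 genes), while 7 reached an unadjusted p below 0.05, against 5.94% of all genes. DESeq2 also called 0 members, with 7 below that value, against 3.53% of genes. With single libraries left out, between 3 members (without wild type replicate 1 or 3, or humanized replicate 1 or 3) and 12 (without humanized replicate 4) lay below it, and none was called. The share of all genes below it moved likewise, from 2.2% without wild type replicate 3 to 21.9% without humanized replicate 4. The median member was lower in humanized embryos by a log2 fold change of -0.16, against 0.00 for all genes tested. Below 0 lay 30 of 38 members, while 50.4% of all genes tested lay above 0. In all 38 members the libraries of the genotypes overlapped, where 2.5% of genes did not. General neuron markers summed to between 2258 and 3498 CPM in humanized and between 2708 and 3858 CPM in wild type libraries of E11.5. The telencephalic neuron markers summed to less in every humanized than in every wild type library of E11.5 (128 to 153 against 157 to 198 CPM). The part of either list in the result was not tested.

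The members with the smallest p at E11.5 were Pclo, Rims2 and Dlg2, all lower in humanized embryos. Pclo held 0.589, 0.883, 0.680 and 0.894 RPKM in humanized and 1.31, 0.883, 1.62 and 0.916 RPKM in wild type libraries, a log2 fold change of -0.66 ± 0.22 (adjusted p = 0.577 by edgeR). Rims2, a relative of Rims1 at the active zone, held 1.61, 2.28, 1.96 and 2.63 RPKM against 3.11, 2.38, 4.24 and 2.80 RPKM (-0.59 ± 0.20), and Dlg2 0.495, 0.493, 0.249 and 0.657 RPKM against 0.945, 0.645, 0.827 and 0.625 RPKM (-0.70 ± 0.26), both with the same adjusted p of 0.577. Wild type replicates 1 and 3 were the highest for all 3 genes, and the other wild type libraries lay among or near the humanized ones. Of the 8 members above 0, Slc17a7 lay highest at 0.71 ± 0.30, on 12 to 34 counts per library. Across the 38 members the log2 fold change had a correlation of 0.62 with exonic GC content. With offsets for exonic GC content, chosen after the data had been seen, this correlation was 0.20, the median member lay at -0.24, 10 members lay below an unadjusted p of 0.05, against 6.08% of all genes, and none passed the adjusted test.

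At E17.5, edgeR again called 0 of 38 members (0% of 18763 genes), and 0 reached an unadjusted p below 0.05 (1.10% of genes), as with DESeq2. With the replicate number as a block, 1 member, Sncb, fell below it (adjusted p = 0.599 by edgeR), against 3.82% of genes, and none passed the adjusted test. The median member lay at -0.13 on the log2 scale, with values from -0.53 (Sncb) to 0.41 (Cask), and the libraries overlapped in all 38 members, where 1.20% of genes did not. Sncb held 41.0, 29.1, 32.6 and 34.5 RPKM in humanized against 82.3, 32.3, 38.2 and 44.2 RPKM in wild type libraries (-0.53 ± 0.28, adjusted p = 0.808 by edgeR). Syngr1 held 15.5, 12.1, 12.4 and 14.0 RPKM against 29.7, 14.6, 13.8 and 15.7 RPKM (-0.46 ± 0.26), and Nrgn 1.91, 1.51, 1.61 and 2.36 RPKM against 3.73, 1.90, 2.01 and 2.48 RPKM (-0.46 ± 0.26). Wild type replicate 1 was the highest library for all 3. Each was also lower in humanized embryos in all 4 same-numbered pairs, although pairing by number is not established. This held for 10 of 38 members (also Syp, Vamp2, Rab3a, Sv2a, Syngr3, Cplx1 and Camk2b), against 11.6% of genes, while 3 (Pclo, Erc2 and Homer1) were higher in all 4 pairs, against 10.8%. However, 1 of the 4 pairs holds wild type replicate 1. That library lay above the other wild type libraries for all 10 (0.77 at Syngr3 to 1.44 at Syp, log2). It lay below them for the 3 (-0.98 at Erc2 to -1.38 at Homer1), and the pairs were not counted without it. Without wild type replicate 1 the log2 fold changes were -0.16 for Sncb, -0.13 for Syngr1 and -0.22 for Nrgn. The values of all 38 members then lay between -0.22 and 0.25, and the median was 0.04. The correlation of the log2 fold change with exonic GC content over the 38 members was -0.69 with all libraries, -0.35 without that library and 0.06 with offsets for GC content.

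By the interaction term, no member was called for a difference between genotypes in the change between time points (0 of 38, 0% of 20234 genes). Below an unadjusted p of 0.05 lay 7 members, against 7.96% of all genes. By DESeq2, which also called 0 members, 9 lay below it, against 5.38% of genes. Leaving out single libraries gave between 2 members (without wild type replicate 3 of E11.5 or humanized replicate 2 of E17.5) and 12 (without wild type replicate 2 of either time point), and between 3.32% (without wild type replicate 3 of E11.5) and 18.2% (without wild type replicate 2 of E17.5) of all genes. The smallest p belonged to Dlg2 (0.96 ± 0.37 more change in humanized embryos on the log2 scale, adjusted p = 0.462 by edgeR), Pclo (0.92 ± 0.35) and Rims2 (0.84 ± 0.35). Without wild type replicate 1 of E17.5 these were 0.77, 0.74 and 0.63.

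**Figure D4:**
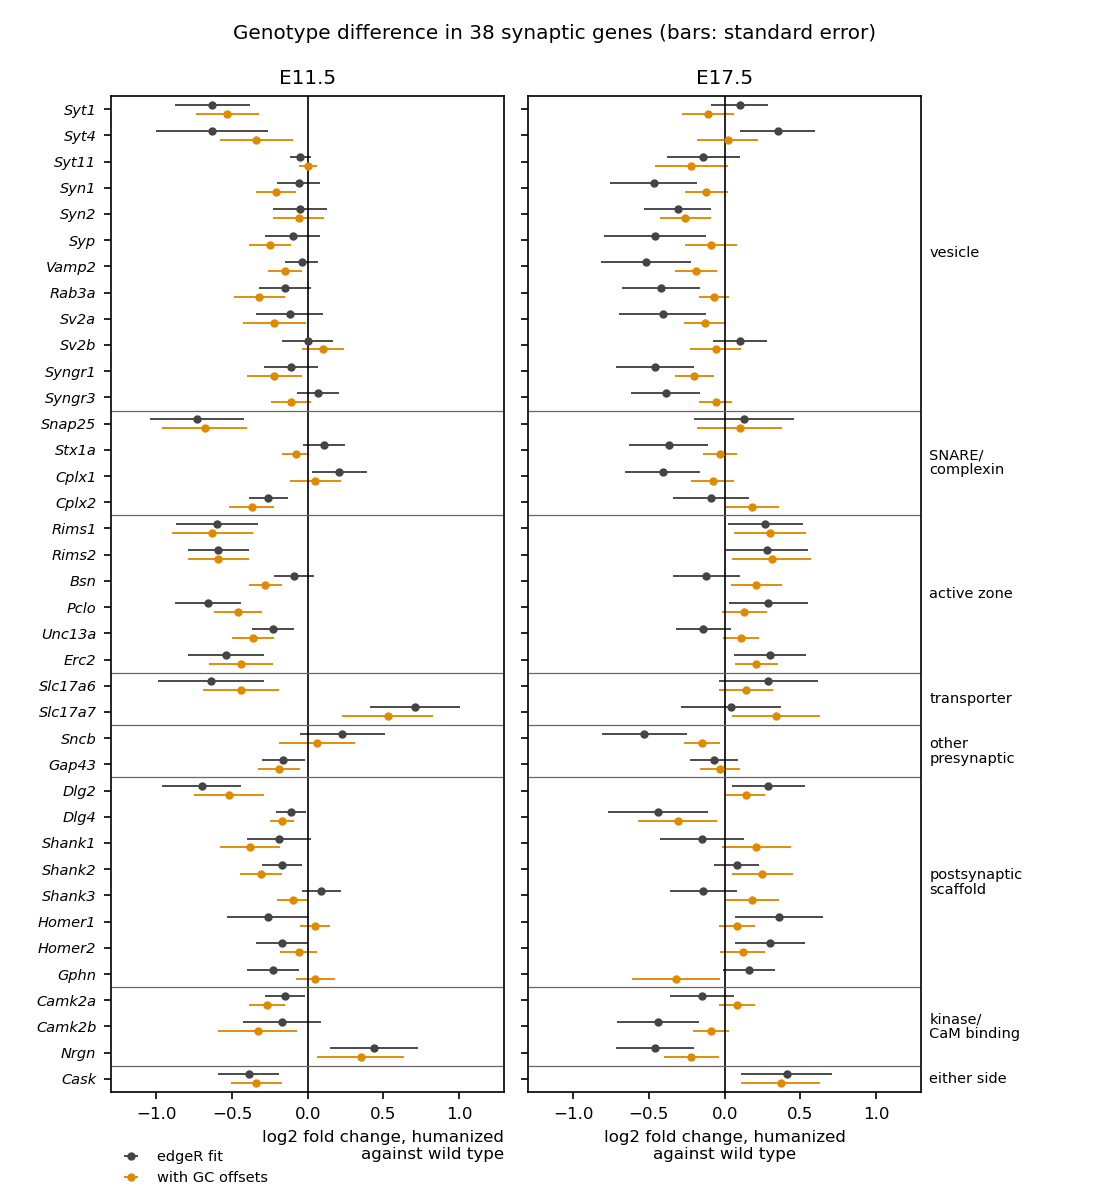
Log2 fold change of each member between humanized and wild type libraries (x axis, 4 against 4) at E11.5 and at E17.5, with standard errors as bars, from the edgeR fit and from the fit with offsets for exonic GC content. At E11.5 the active zone genes lie below 0 in both fits, and at E17.5 the negative values of vesicle genes such as Vamp2 and Syn1 move toward 0 with the offsets.

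Promoter peaks were counted within 1 kb of any start of a protein-coding transcript (GENCODE release 39, mm39). H3K4me3 lay over the promoter of 37 of 38 members in every wild type list at both time points, where 65.2% (E11.5) and 65.4% (E17.5) of 21575 protein-coding genes had such a peak. The H3K4me3 peaks of members were wider at E17.5 (median 3197 bp) than at E11.5 (1997 bp), while the median over all genes with a peak was 2281 bp at E17.5 and 2229 bp at E11.5. The member without one was Syt11, at both time points, despite its high RNA. Of the 4 annotated coding starts of Syt11, the windows around 88679908 and 88682471 on chromosome 3 are partly repeated on that chromosome, with 26.3% and 39.5% of 150-bp tiles found again elsewhere on it. Multi-mapping reads had been removed before peaks were called, and their part in the absence was not tested.

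H3K27ac was listed over more members at the later time point. It lay over 24 promoters in every list of E11.5 (49.4% of all genes) and over 36 in every list of E17.5 (59.1%). Its median fold enrichment over members with a peak was 5.99 in the early and 29.6 in the late lists, beside 10.1 and 20 over all genes with a peak, and lay at the 21.9th and the 69.5th percentile among all promoters with a peak in the same lists. The H3K27ac lists held 32418 to 36150 peaks at E11.5 and 62720 to 77419 at E17.5, and the part of list length in these values was not tested. The antibody also recognizes acetylated H2B according to the study's methods. At 7 members H3K27ac was in neither list of E11.5 and in all 3 of E17.5, a pattern of 7.65% of all genes: Syt11, Syn1, Syn2, Sv2b, Cplx1, Sncb and Camk2b. At E17.5 the fold enrichment was 33.4 to 37.3 at Camk2b, 12.6 to 19.3 at Sncb, 7.78 to 15.7 at Syn2 and 3.66 to 4.86 at Syt11. In every list with H3K27ac at Sncb, Syn2 and Camk2b, the peak covered bases printed above. The 7 members had a median wild type log2 fold change of 2.78 in RNA (2.36 without replicate 1 of E17.5). The median of their mean levels moved from 0.993 to 36.0 RPKM. Both of these levels are those of Camk2b, whose own log2 fold change was 5.17 (4.79 without that replicate). They therefore do not measure the change of the 7 as a group. The 24 members with H3K27ac in every list of both time points had a median log2 fold change of 2.23 (2.01). Their median level moved from 4.23 to 25.5 RPKM. The median levels include replicate 1 of E17.5, which held 60.4 RPKM of Camk2b, and were not computed without it. The lowest values were -0.02 (Syt11) among the 7 and 0.04 (Cplx2) among the 24. Most members thus gained RNA with and without a gained peak, but not all.

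Nrgn and Slc17a7, the lowest pair in RNA, had no H3K27ac peak in any wild type list. Both carried H3K4me3 at the low end (7.60 to 13-fold at Slc17a7 and 12.2 to 21.8-fold at Nrgn) and broad H3K27me3 domains in every list, 23873 to 29804 bp wide at Slc17a7 and 11793 to 13644 bp at Nrgn. H3K27me3 overlapped 23 member promoters in every list of E11.5, against 21.4% of all genes, and 16 in every list of E17.5, against 21.5%. It was lost from every list at Rims1, Bsn, Gap43 and Shank1 (4 of 38, 1.60% of all genes), where the enrichment at E11.5 had been low, between 2.48 and 3.59-fold. These 4 members had a median log2 fold change of 2.65 in RNA (2.51 without replicate 1 of E17.5). The 12 members with H3K27me3 in no list had a median of 2.30 (1.98), and the 16 with it in every list of both time points 2.16 (2.18), a group that holds both Sncb, with the largest change, and Cplx2. At Camk2b, H3K27me3 stayed in every list while its enrichment moved from 14.3 to 18.6-fold at E11.5 to 3.48 to 4.48-fold at E17.5. The H3K27me3 lists held 13850 to 19166 peaks at E11.5 and 27452 to 43700 at E17.5. Fold enrichment is relative to each list's own background, so these values describe lists and carry no test.

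H3K4me3, H3K27ac and H3K27me3 were called together in every list at 13 members at E11.5 (8.47% of all genes) and at 14 at E17.5 (12.6%), which in bulk tissue can be different cells. Slc17a6 had the widest such region, with H3K27ac peaks of 7381 to 7543 bp at E11.5 and 17249 to 18906 bp at E17.5, H3K4me3 peaks of 9938 to 14452 bp and H3K27me3 of 12387 to 15739 bp. By side, H3K27ac was at E11.5 in every list for 15 of 26 presynaptic and 8 of 11 postsynaptic members, and at E17.5 for 25 and 10. H3K27me3 was in every list for 16 and 7 at E11.5 and for 11 and 5 at E17.5. At Dlg2 the promoter printed above was covered by the highest H3K4me3 peak in neither list of E11.5 and in 1 of the 3 of E17.5, since the gene has several starts and that peak lay at another.

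**Figure D5:**
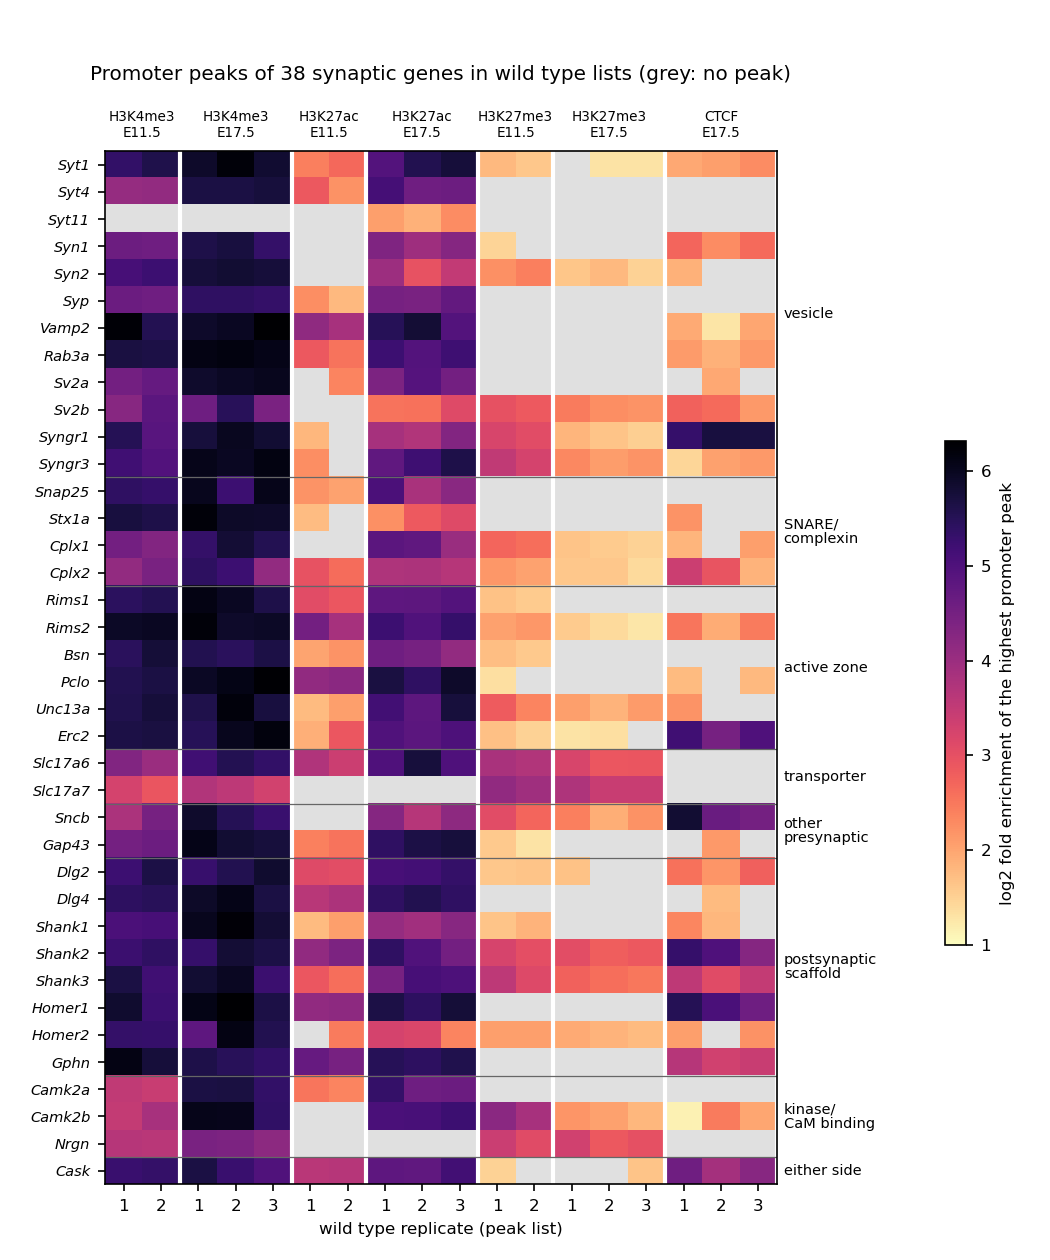
Log2 fold enrichment of the highest peak within 1 kb of a start of each member (rows, by role) in each wild type peak list (columns, by mark and time point), with grey for no peak. H3K27ac is grey at E11.5 and filled at E17.5 for Syn2, Sncb and Camk2b, and Nrgn and Slc17a7 stay grey for H3K27ac.

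CTCF at E17.5 lay over 18 of 38 member promoters in every wild type list, against 38.3% of all genes. The strongest were at Syngr1 (39.5 to 52.5-fold), Sncb (22.5 to 55.8), Homer1 (23.9 to 46.1), Shank2 (19.4 to 39.9) and Erc2 (22.4 to 36.5). Outside chromosome 13, where the humanized genome shifts coordinates, 35 members remained, and 15 had CTCF in every wild type list and 11 in every humanized list, against 38.5% and 34.3% of all genes outside that chromosome. At 2 of them, Syt1 and Syngr3, CTCF was in 3 of 3 wild type and 0 of 3 humanized lists (0.612% of genes), with fold enrichments of at most 4.87. The humanized CTCF lists were shorter (54857 to 59845 peaks against 61582 to 78661), the part of which was not tested, and 3 against 3 lists allow no exact p under 0.1. For the histone marks at either time point, 0 of the 35 members had a peak in every wild type and no humanized list, against 0.496% of genes, and 1, Syt4 with H3K27me3 at E11.5, had the opposite, against 1.36%.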

How the data were processed

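RNA and chromatin of diencephalon were profiled in 16 RNA-seq and 36 ChIP-seq samples, and input samples were not analysed here. Per the study's methods and processing notes, the authors aligned RNA reads to mm39 with STAR 2.7.9a and GENCODE release 31, and deposited raw read counts per gene, without strand and for each strand. They aligned ChIP reads with Bowtie2 2.4.2 (humanized samples to mm39 with the human sequence inserted), removed multi-mapping and duplicate reads, and ran MACS2 2.2.7.1 on single replicates. The deposited lists give a score, the fold enrichment over background (a ratio), and −log10 p and q values. H3K27me3, whose calling is not given in the sources used here, has the layout of broad peaks. Read depth cannot be taken from peak lists.

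Lines that name no gene (48.1% to 58.4% of reads) were left out. Of 56923 gene IDs, 56236 (98.8%) matched GENCODE release 39. The unstranded counts were filtered with filterByExpr, normalized by TMM and tested over all genes with edgeR 4.0.16 (R 4.3.3) by its quasi-likelihood test, called at a Benjamini-Hochberg adjusted p under 0.05, and with glmTreat against a 2-fold change. DESeq2 1.42.0, the study's tool, was an alternative, with its size factors, library size alone, all genes without a count filter, the sense-strand column (96.2% of stranded counts), a fit of all 16 samples, a replicate block and leaving out each replicate. RPKM used merged exon lengths of basic transcripts. Between genotypes at E17.5, the correlations of deviations of same-numbered samples were 0.65, 0.763, 0.152 and 0.398. The same number was the best match for replicates 1 and 2, and another number for replicates 3 and 4. In the other comparisons these correlations lay between -0.743 and 0.613. Pairing by number is therefore not established in any comparison. Offsets for exonic GC content in 20 bins were chosen after the data had been seen. Scripts were tested on simulated data.

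Members and lists were chosen with earlier results of these data known. All members are given by counts and ranges. Wild type values per library are given for the member with the largest and the smallest wild type change in each role. They are also given for members that fell or were not called. Camk2a at E17.5 is given as a range, mean and SD, and humanized libraries are listed for only some of these members. For the 3 with the smallest p between genotypes at each time point, the libraries of both genotypes at that time point are listed. Of the 50 other presynaptic genes, Sypl had no match by symbol. Promoter peaks overlapped by at least 1 bp, and alternatives were a window of 2.5 kb, the outermost start, an overlap of 200 bp, a −log10 q minimum of 5, humanized lists and leaving out each list. Figures were drawn with matplotlib 3.10.9 (Python 3.11.15).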

Additional observations from a re-analysis of the deposited data

Results flagged for a closer look

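Of 152 groups of 4 libraries (38 members in 4 groups), 11 held a library far from the other 3 by Dixon's test, where chance flags about 1 in 20 groups. In 8 of them it was wild type replicate 1 of E17.5, above the others: Camk2b (60.4 RPKM, the others 27 to 28.6), Dlg4 (68.1, 23.6 to 29.1), Stx1a (65.4, 30.8 to 34.5), Sv2a (69.7, 30.1 to 30.5), Syn1 (116, 48.3 to 52.3), Syngr1 (29.7, 13.8 to 15.7), Syp (105, 37.0 to 40.2) and Vamp2 (357, 137 to 153). In the other 3 it was wild type replicate 1 of E11.5, above the others: Camk2a (3.03 RPKM, the others 2.30 to 2.33), Shank1 (5.08, 3.49 to 3.72) and Syn2 (0.476, 0.384 to 0.398).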

How the results depend on the processing

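Of the counts of members called, 35 between time points in each genotype and 0 between genotypes or by the interaction, none changed by more than 1.5 times under any alternative: 34 to 36 members in wild type and 35 in humanized embryos with a replicate left out, and 35 in both with every other setting, DESeq2 included. The replicate block called 35 and 35 members between time points and 0 in the other 3 comparisons. Homer1 in wild type was called only when replicate 1 of E17.5 was left out (log2 fold change 0.61). Homer2 was not called in wild type without replicate 4 of E11.5. Leaving out replicate 1 of E17.5 in wild type also moved the difference of the presynaptic and postsynaptic medians, to 0.57 from 0.92, where leaving out each replicate gave 0.57 to 1.06. With library size alone the median log2 fold change of all genes between time points moved to -0.134 in wild type, against -0.015, and with DESeq2, which tested more low genes, to 0.176. With peaks of −log10 q of at least 5, H3K27me3 at E17.5 was in every wild type list at 8 members, against 16. Without that minimum, CTCF was in every humanized list at 11 of the 35 members outside chromosome 13, where wild type gave 15. It was in every wild type list at 18 of all 38. With 12 to 20 counts per library, Slc17a7 at E11.5 is limited by depth.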
